A study of Oryza sativa Indica Group with 45 samples.

Results

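Of the 57258 probe sets on the rice array that are not controls, 160 were higher in the B line than in the R line in every tissue and age examined. They were chosen on the measured parental values. A probe set belonged to the group where the mean log2 intensity of the B line exceeded that of the R line by at least 1, and the B line mean was at least 5, in each of 5 combinations of tissue and age. Exchanging the parents in this rule gave 120 probe sets. Since the B line and R line arrays chose the members, the difference between the parents is given below as a description without a test, and so are the differences between the hybrid and each single parent.

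The study measured transcripts on Affymetrix arrays in an indica rice hybrid and the lines it was bred from. The groups were the hybrid MRP5401, its female parent PMS80 (the B line) and its male parent PR319 (the R line). Each was sampled as leaf and root of seedlings 14 days old, as leaf and root of plants 40 to 60 days old (mature leaf and mature root), and as flag leaf of plants 90 days old. There were 15 groups with 3 biological replicates apiece, according to the labels, and 1 array per replicate. The labels name no transgene and no treatment that sets the groups apart. The seedlings grew hydroponically at 28 °C, and whether several plants were pooled per array is not given in the sources used here.

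In hybrid rice breeding with cytoplasmic male sterility, a B line maintains the sterile seed parent and shares its nuclear genome, and an R line carries nuclear genes that restore the fertility of the hybrid. A hybrid plant inherits 1 nuclear allele of each gene from either parent. A gene that is transcribed from the allele of a single parent, at an unaltered rate, would therefore lie in the hybrid near the mean of the parents in linear intensity, which on a log2 scale is much nearer to the higher parent. An array probe set reads transcripts through short probes designed on reference sequence, so that a transcript whose sequence differs from the probes gives less signal; sequence and transcript level cannot be told apart here, and neither can fewer cells of a type and less RNA per cell.

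Median intensities per array ran from 6.72 to 7.90, and the lowest correlation between arrays of a group was 0.977. The 7 leaf markers averaged 13.5 to 14.5 on the log2 scale in leaf groups and were all under 5 in mature roots. In young roots they averaged 9.65 in the B line, 11.8 in the hybrid and 9.33 in the R line, and all 7 were higher in the hybrid than in both parents. The 8 root markers averaged 5.44 to 8.29 in root groups and 3.53 to 4.32 in leaf groups. Several were under 5 in roots too: 3 in the B line, 5 in the hybrid and 5 in the R line in young root, and 4, 5 and 3 in mature root. NIP2-1 also read high in leaves, in the hybrid 10.03 in mature leaf against 9.46 in mature root. The R line arrays of young leaf stood apart: their mean within-group correlation was the lowest of all groups (0.979), and their hybridization spike-ins averaged 12.8, against 10.9 in the hybrid and 11.7 in the B line. Without young leaf the rule gave 179 members. These include all 160 by construction, since the setting only drops a condition, so it cannot show how far those arrays shaped the members.

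Levels are given on the log2 intensity scale, for single arrays or as mean ± SD, and n is 3 throughout. A mean under 5 is close to background. A difference between the parents with an R line mean under 5 is therefore a lower bound, with that mean set to 5. Differences tested with limma are on the log2 scale ± SE, and "higher" or "lower" in a count means an adjusted p under 0.05 over the 24130 probe sets that reached a mean of 5 in at least 1 group. All 160 members passed that filter, because the rule demands it.

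The array annotation assigned exactly 1 gene to 87 member probe sets, several genes to 1 and none to 72. That is 54.4% with 1 gene, against 70.8% of the tested probe sets. The 87 probe sets represented 77 genes, all found in the RefSeq table, and 8 of these genes carried a name. The named genes encode histone H2B (H2B.10), a minichromosome maintenance family protein (MCM9), an EIN3-like transcription factor of ethylene signalling (EIL1), a dikinase that phosphorylates starch for its breakdown (GWD3), the small subunit of carbamoyl phosphate synthetase, which feeds arginine and pyrimidine synthesis (CARA), a vacuolar sorting receptor of the RMR type (OsRMR2), a beta-glucosidase family protein (BGLU9), and ENR. Of the 77 genes, 73 are protein-coding, 3 are annotated as miscellaneous RNA (LOC9266843, LOC9268385 and LOC4334934) and 1 as long noncoding RNA (LOC4352057). Miscellaneous RNA genes made up 3.90% of the member genes and 0.353% of the genes of tested probe sets. Probe sets with the suffix _s, which match several transcripts, made up 13.1% of members and 7.81% of tested probe sets. For the suffix _x, which marks possible cross-hybridization, these shares were 12.5% and 12.9%.

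The parental contrast ranged from the bare threshold to near presence and absence. The smallest of a member's 5 differences had a median of 2.46 over the 160 members and reached 10.8 (as measured, background included). It lay between 1 and 2 for 60 members, between 2 and 4 for 62, and at 4 or more for 38. The R line mean was under 5 at all 5 combinations for 82 members, at some of them for 57 and at none for 21. The arrays themselves did not overlap between the parents for 157 members in young leaf, 160 in young root, 160 in mature leaf, 159 in mature root and 160 in flag leaf. This follows from the rule. Just inside the threshold stood 5 members with smallest differences of 1.01 to 1.04, namely BGLU9, LOC4338625, Os.6626.1.S1_x_at, Os.7473.1.S1_at and Os.27455.1.S1_x_at. Just outside stood 5 probe sets with 0.964 to 0.998, namely those of LOC4337735 and of the small heat shock gene HSP26.2, and Os.4195.1.S1_at, OsAffx.12052.1.S1_at and Os.17349.1.S1_s_at.

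**Figure D1:**
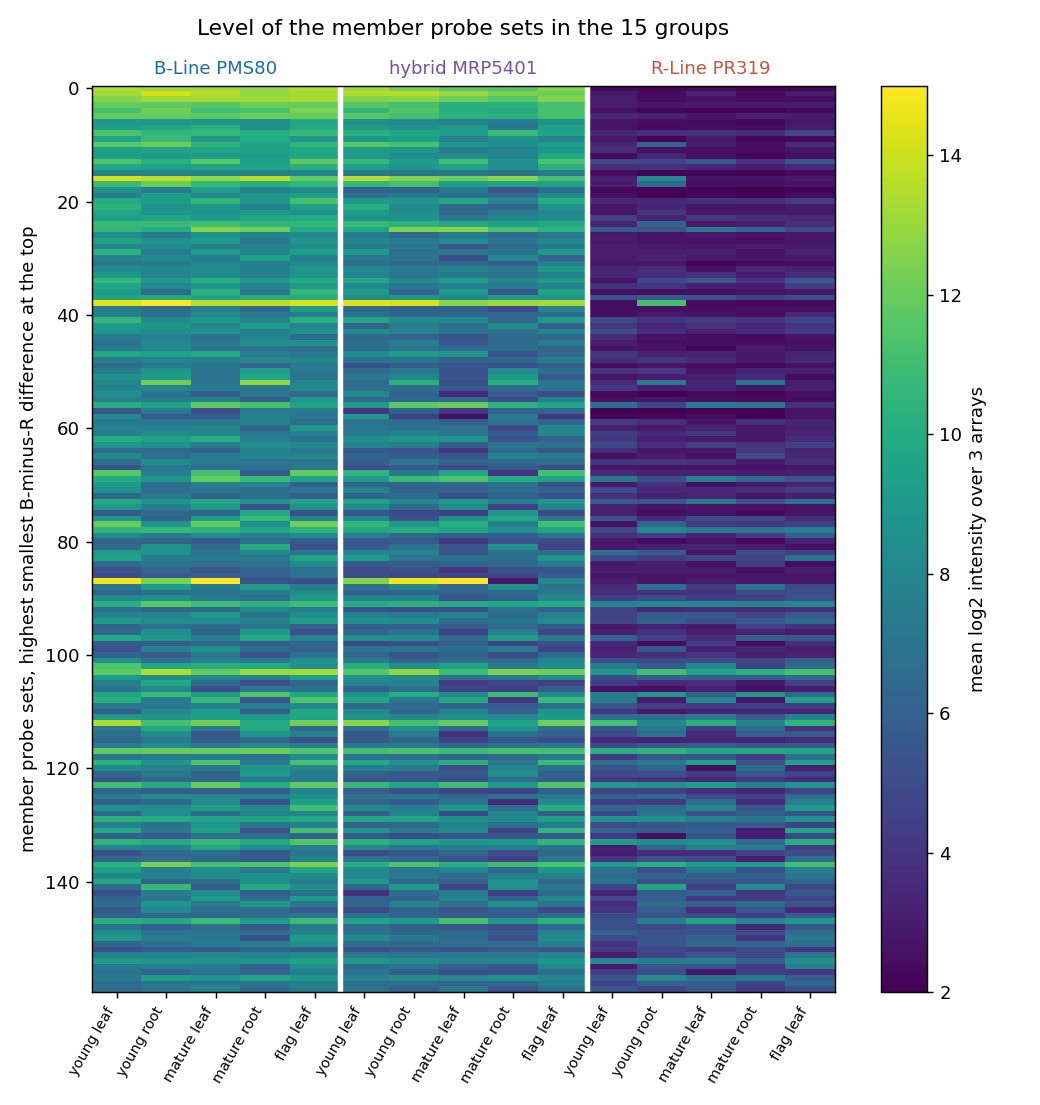
Mean log2 intensity (colour) of the 160 member probe sets (rows, ordered by the smallest B line minus R line difference) in the 15 groups (columns, 3 arrays each). The B line block is bright throughout because the rule demands it, the R line block is dark for most rows, and the hybrid block, which the rule did not use, is closer in shade to the B line; 82 rows stay under 5 in all 5 R line columns.

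The largest contrast belonged to LOC4326061, a gene on chromosome 1 with 3 member probe sets. In mature leaf its B line arrays read 13.40, 13.11 and 13.23, its hybrid arrays 11.73, 11.55 and 11.58, and its R line arrays 2.27, 2.31 and 2.31. In young leaf the B line arrays read 13.67, 13.39 and 13.13, the hybrid arrays 13.04, 13.55 and 13.03, and the R line arrays 2.33, 2.32 and 2.32. Hybrid and B line arrays thus overlapped in young leaf and were separate in mature leaf, while the R line stayed at background at every combination. The B line exceeded the R line by at least 7.97 at each combination.

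LOC4341377, on chromosome 6, also read far above background in the B line and near it in the R line, in its member probe set Os.12027.1.S1_a_at. Its B line means ran from 12.89 ± 0.30 in mature root to 14.10 ± 0.13 in young root and its R line means from 2.34 ± 0.01 to 3.27 ± 0.78. The hybrid stood at 13.40 ± 0.17 in young leaf, above the B line mean of 13.20 ± 0.33, and at 12.10 ± 0.70 in flag leaf, where 1 of its arrays read 11.30 and the others 12.44 and 12.57. The other member probe set of this gene, Os.52817.1.S1_at, was far lower. Over the combinations it averaged 5.97 in the B line, 5.14 in the hybrid and 3.28 in the R line. LOC4326058, which lies on chromosome 1 as LOC4326061 does, ran from 12.59 ± 0.05 to 13.35 ± 0.08 in the B line and from 2.45 ± 0.05 to 3.07 ± 0.90 in the R line. LOC9266843, one of the miscellaneous RNA genes, ran from 11.13 ± 0.20 to 12.51 ± 0.21 in the B line and from 2.08 ± 0.01 to 2.65 ± 0.08 in the R line. In these genes a single parent carried a measurable signal.

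LOC4328727, on chromosome 2, was at background in the R line in 4 combinations only. Its R line means were 2.47 ± 0.12 in young leaf, 2.35 ± 0.00 in mature leaf, 2.36 ± 0.09 in mature root and 2.38 ± 0.02 in flag leaf. In young root the R line arrays read 12.71, 10.40 and 10.42, below B line arrays of 15.05, 15.22 and 15.12. The hybrid arrays there read 14.41, 14.13 and 14.30, between both parents without overlap. Across the members the R line mean varied by 4 or more between combinations for 13 probe sets, with a median range of 1.36 over the 160. The B line mean varied by a median of 1.88 and the hybrid mean by a median of 1.87.

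**Figure D2:**
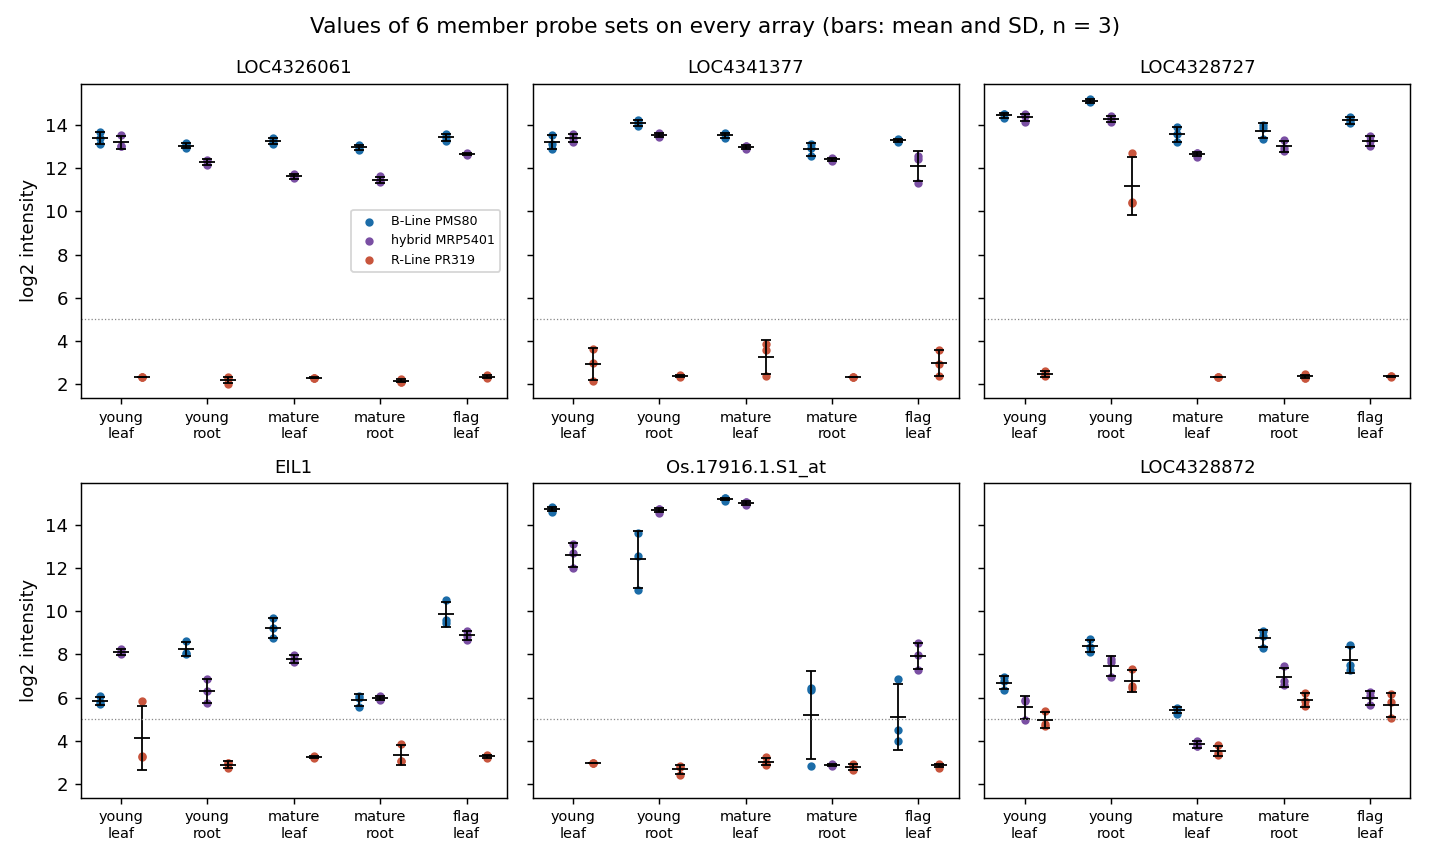
Log2 intensity on each array (points; bars give mean and SD, n = 3) of 6 member probe sets at the 5 combinations of tissue and age, with a dotted line at 5. LOC4326061 and LOC4341377 stay near 2 to 4 in the R line at every combination, LOC4328727 rises to 11.18 in R line young root, EIL1 in young leaf and Os.17916.1.S1_at in young root and flag leaf stand above the B line in the hybrid, and LOC4328872 in the hybrid lies near the R line.

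The hybrid stood between its parents for most members. Its mean lay between both parental means for 142 members in young leaf, 149 in young root, 154 in mature leaf, 156 in mature root and 149 in flag leaf, and for 122 members at all 5. It lay above the B line for 18, 10, 2, 4 and 9 members in the same order, and for none of them at all 5. The cases in mature leaf were OsRMR2 and Os.15942.5.S1_x_at, and those in mature root were EIL1, LOC4325244, LOC4347927 and Os.17190.1.A1_s_at. All hybrid arrays exceeded all R line arrays for 155, 152, 140, 151 and 151 members. The rule sets the parental means at least 1 apart for every member, so the counts in this paragraph follow in part from it. The same counts over all tested probe sets were not made. On the log2 scale 102 members were nearer to the B line at all 5 combinations and 1, LOC4328872, was nearer to the R line at all 5.

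In linear intensity the median hybrid reached 68.0% of the B line in young leaf, 60.0% in young root, 43.7% in mature leaf, 52.4% in mature root and 57.1% in flag leaf. The linear mean of the parents was at a median of 53.7% to 54.3% of the B line. The interquartile range of the members was 51.1% to 86.7% in young leaf and 34.6% to 55.6% in mature leaf. Averaged over the 5 combinations, 79 members lay between 40% and 60% of the B line, 66 between 60% and 100%, 9 between 10% and 40% and 6 above 100%. A single high percentage can carry such an average. EIL1, above 100% on average, stood at 477% in young leaf, 26.0% in young root, 37.0% in mature leaf, 106% in mature root and 51.0% in flag leaf. For the 82 members with the R line under 5 everywhere, the median was 53.0%, where the linear mean of the parents was at 52.3%. For the 21 members with the R line at 5 or more everywhere, the median was 64.9% and the linear mean of the parents 62.9%.

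The hybridization spike-ins, which are added to the sample, also differed between the groups. In mature leaf they averaged 12.3 in the B line, 11.3 in the hybrid and 11.4 in the R line. In young leaf they averaged 11.7, 10.9 and 12.8, and in flag leaf 11.3, 11.2 and 11.3 in the same order. Their part in the percentages was not tested.

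**Figure D3:**
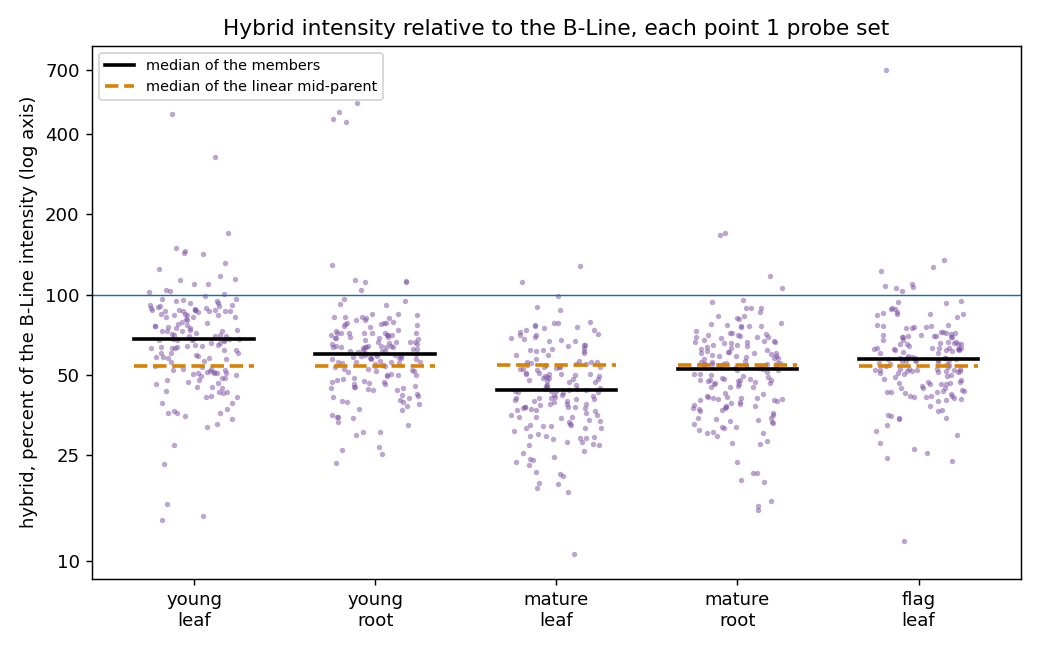
Intensity of the hybrid in percent of the B line (log axis) for each member probe set (points, from means of 3 arrays) at the 5 combinations. The solid line is the median of the members, which falls from 68.0% in young leaf to 43.7% in mature leaf; the dashed line is the median of the linear mean of the parents, 53.7% to 54.3%, and 100% marks the B line.

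The hybrid was tested against the mid-parent on both scales, since the log2 mid-parent of a gene with 1 silent parent lies far below the linear one. The log2 mid-parent is the mean of both log2 means. It too rests on the B line and R line arrays, between which the rule demands a gap. For the members the linear mid-parent lay above it by a median of 0.97, 0.98, 0.89, 0.88 and 0.95 from young leaf to flag leaf. An excess of higher calls over all tested probe sets therefore follows in part from the rule. Against the log2 mid-parent, 127 members were higher and 0 lower in young leaf, where 34.4% of all tested probe sets were higher and 12.5% lower. In young root 97 were higher (11.4% of all) and 1 lower (8.91%), and in mature leaf 59 were higher (1.46%) and 4 lower (3.42%). In mature root 94 were higher (13.6%) and 0 lower (9.42%), and in flag leaf 91 were higher (7.69%) and 1 lower (2.44%). The median difference of the members was 1.31, 1.02, 0.53, 0.83 and 0.86, against 0.17, -0.02, -0.02, 0.02 and 0.02 over all tested probe sets. With log2 values under 5 set to 5, the members' medians were 0.77, 0.38, 0.08, 0.36 and 0.50. The higher and lower calls under that setting were 105 and 5 in young leaf, 69 and 6 in young root, 44 and 14 in mature leaf, 67 and 10 in mature root and 76 and 5 in flag leaf. Members were higher at all 5 combinations in 42 cases and at none in 11. These 2 counts were not made over all tested probe sets, so they cannot be read as a trait of the members. The lower call in young root was ENR. Those in mature leaf, found after their values were seen, were Os.7630.1.S1_at at -0.70 ± 0.18, Os.23305.1.A1_at at -0.71 ± 0.21, Os.48671.1.A1_at and Os.49297.1.S1_at. For Os.48671.1.A1_at the hybrid stood at 4.87 and for Os.49297.1.S1_at at 2.53, so their differences have no exact size. Of these 4 lower calls 0 were left without hybrid replicate 1 of mature leaf and 1 without hybrid replicate 2. Os.48671.1.A1_at was also the lower call in flag leaf, at -0.73 ± 0.21, and 0 lower calls were left there without hybrid replicate 1, hybrid replicate 3 or B line replicate 2.

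The linear mid-parent is the log2 of the mean of both parental intensities, and for members it is set mostly by the B line arrays, which the rule used. Against it most members did not pass: 117 in young leaf, 146 in young root, 134 in mature leaf, 132 in mature root and 144 in flag leaf. In young leaf 34 were higher (29.4% of all tested probe sets) and 9 lower (14.8%). In mature leaf 1, Os.15942.5.S1_x_at, was higher (0.617%) and 25 were lower (4.54%). In young root 9 were higher (9.01%) and 5 lower (10.7%), in mature root 6 higher (9.23%) and 22 lower (14.8%), and in flag leaf 9 higher (5.62%) and 7 lower (2.85%). The 5 lower in young root were ENR, LOC4347150, LOC4325704, LOC4330694 and LOC4332948. The median difference was 0.32 in young leaf, 0.09 in young root, -0.33 in mature leaf, -0.09 in mature root and 0.02 in flag leaf, against 0.09, -0.05, -0.04, -0.05 and -0.00 over all tested probe sets. No call was made at any combination for 69 members, a count that was not made over all tested probe sets.

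The choice of scaling moved these splits. After quantile normalization the linear comparison gave 18 higher and 15 lower members in young leaf, 8 and 15 in young root, 2 and 12 in mature leaf and 5 and 9 in flag leaf. Against the log2 mid-parent, quantile normalization gave 106 higher and 2 lower in young leaf and 62 and 2 in mature leaf. It moved the median of all tested probe sets in young leaf from 0.17 to 0.02 against the log2 mid-parent and from 0.09 to -0.01 against the linear one.

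**Figure D4:**
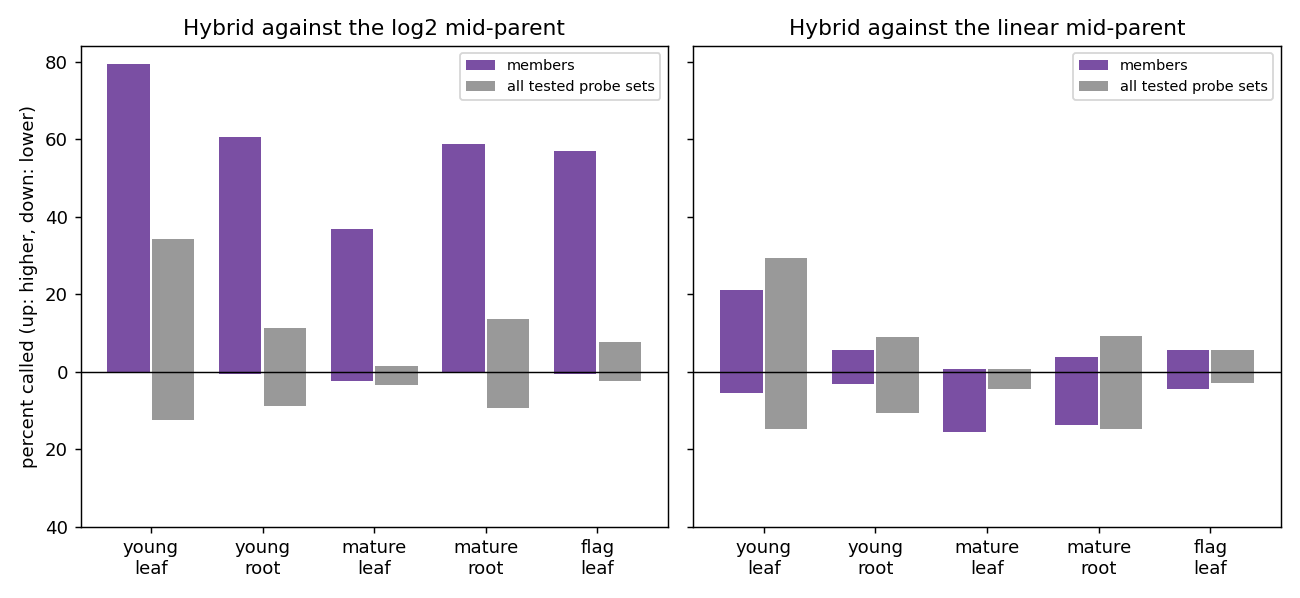
Percent of the 160 members and of the 24130 tested probe sets called by limma at an adjusted p under 0.05, higher above the zero line and lower below it, for the hybrid against the log2 mid-parent (left) and the linear mid-parent (right). Against the log2 mid-parent the higher share of members (127, 97, 59, 94 and 91 of 160) is above that of all probe sets at each combination, whereas against the linear mid-parent the shares of members called higher are at or below it except in mature leaf, where each share is under 1%. The excess on the left follows in part from the gap between the parents that the rule demands.

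Averaged over the 5 combinations, 139 members were higher than the log2 mid-parent (22% of all tested probe sets) and 1 was lower (8.75%). This excess, too, follows in part from the gap between the parents that the rule demands. The highest values belonged to genes at background in the R line at 4 or 5 of the 5 combinations: 4.80 ± 0.12 for LOC4341377, 4.50 ± 0.05 for LOC4326061, 4.42 ± 0.08 for LOC4326058 and 4.33 ± 0.12 for LOC4328727. Each of these is the value of 1 probe set. The other member probe set of LOC4341377, Os.52817.1.S1_at, stood at 0.51 ± 0.14, and those of LOC4328727 at 2.58 ± 0.13 and 2.84 ± 0.14. With log2 values under 5 set to 5 the values 4.80, 4.50, 4.42 and 4.33 became 3.68, 3.14, 3.23 and 3.29. Part of the size thus depends on how the background of the R line is set. Under that setting 113 members were called, of which 101 were higher and the rest lower, against 1 lower call in the reported fit. Of the members, 30 lost their call and 15 changed sign.

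LOC4328872, on chromosome 2, was the lower call, with an average of -0.43 ± 0.12 (adjusted p = 0.00776, limma). The call was lost without replicate 1 (-0.45, adjusted p = 0.0534) and without replicate 2 (-0.28, adjusted p = 0.154), and kept without replicate 3 (-0.55, adjusted p = 0.0121). In mature root its B line arrays read 8.87, 8.32 and 9.08, its hybrid arrays 6.78, 6.57 and 7.44 and its R line arrays 5.86, 6.22 and 5.60. Its hybrid arrays lay below those of the B line without overlap at all 5 combinations and overlapped those of the R line at every combination except mature root. The hybrid reached 28.2% of the B line in mature root and 52.7% in young root.

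Among the 8 named genes, 5 were higher than the log2 mid-parent on average, as were 86.9% of all members. Such calls follow in part from the gap between the parents that the rule demands. The average against the linear mid-parent was not tested. EIL1 was higher by 1.82 ± 0.15 (limma, adjusted p = 1.36e-11), OsRMR2 by 0.76 ± 0.19 (0.00218), BGLU9 by 0.55 ± 0.13 (0.00124), GWD3 by 0.54 ± 0.17 (0.0136) and H2B.10 by 0.30 ± 0.09 (0.0124). Of these calls that of EIL1 alone held with each replicate number left out in turn. Adjusted p reached 0.103 for OsRMR2 and 0.108 for H2B.10 without replicate 2, 0.0551 for BGLU9 without replicate 2 and 0.164 for GWD3 without replicate 2. Without young leaf it was 0.098 for OsRMR2, 0.0829 for BGLU9 and 0.0512 for GWD3, after quantile normalization 0.0501 for H2B.10, and with array weights 0.0535 for GWD3. With array weights MCM9 passed (adjusted p = 0.0292). In the reported fit MCM9 at 0.29 ± 0.16, CARA at 0.01 ± 0.12 and ENR at -0.16 ± 0.15 did not pass. With values under 5 set to 5, BGLU9 stood at 0.11 and did not pass (adjusted p = 0.334), and CARA stood at -0.25 and passed (adjusted p = 0.0163).

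EIL1 took different places in the hybrid in different tissues. In young leaf the B line arrays read 5.81, 5.69 and 6.07, the hybrid arrays 8.02, 8.05 and 8.26, and the R line arrays 5.83, 3.28 and 3.24. In young root the B line arrays read 8.09, 8.03 and 8.61, the hybrid arrays 5.76, 6.84 and 6.29, and the R line arrays 2.73, 2.99 and 2.98. The hybrid was thus above every parental array in young leaf, at 477% of the B line, and between the parents in young root, at 26.0%. One R line array of young leaf read as high as the B line. In young leaf EIL1 was above the linear mid-parent by 2.88 ± 0.35 (limma, adjusted p = 5.41e-08), and its difference from the log2 mid-parent was larger in young leaf than in young root by 2.40 ± 0.47 (adjusted p = 0.000139).

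H2B.10 kept the same order of the 3 genotypes in leaf and root. In mature leaf its B line arrays read 9.13, 9.34 and 9.13, its hybrid arrays 8.47, 8.03 and 8.01, and its R line arrays 5.90, 5.87 and 5.98. In mature root the means were 11.45 ± 0.23, 10.76 ± 0.37 and 8.99 ± 0.16 in the same order. The arrays of the 3 genotypes did not overlap in either tissue, and none of its 5 comparisons with the linear mid-parent passed (lowest adjusted p = 0.0549, limma, in flag leaf).

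GWD3 was highest in mature leaf and flag leaf in the B line and the hybrid. Its flag leaf means were 11.80 ± 0.07 in the B line, 11.53 ± 0.11 in the hybrid and 8.81 ± 1.67 in the R line, whose arrays read 10.70, 8.17 and 7.55. The R line spread was the widest of the 3 genotypes there. In young root the B line stood at 9.99 ± 0.10, the hybrid at 9.63 ± 0.10 and the R line at 8.60 ± 0.38.

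ENR in young root had B line arrays at 10.82, 10.41 and 11.01, hybrid arrays at 8.96, 8.81 and 9.34 and R line arrays at 9.70, 9.59 and 9.57. It differed from the log2 mid-parent there by -1.15 ± 0.33 (limma, adjusted p = 0.0109), and 0 lower calls were left in young root without hybrid replicate 2. Every hybrid array lay below every parental array. In young leaf the hybrid stood at 6.34 ± 0.25, close to the B line at 6.62 ± 0.79. OsRMR2 in mature leaf showed the opposite order, with hybrid arrays at 11.25, 11.36 and 11.04 above B line arrays at 11.03, 10.60 and 10.93. Its probe set carries the suffix _x, and its difference from the linear mid-parent there, 0.85 ± 0.42, did not pass.

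Besides EIL1, several members without a gene stood far above the B line in the hybrid. Those described next were chosen after their values were seen, apart from Os.17916.1.S1_at, which the naming rule took. In young root Os.15942.1.S1_s_at read 9.35, 10.30 and 10.51 in the B line, 12.29, 12.71 and 12.33 in the hybrid and 6.48, 4.82 and 4.71 in the R line. The hybrid arrays were above every parental array, at 523% of the B line, and exceeded the linear mid-parent by 3.33 ± 0.42 (limma, adjusted p = 1.72e-07). Os.15942.5.S1_x_at at 458% and Os.53912.1.S1_x_at at 445% showed the same order. The first pair shares a cluster number in the array design and may read 1 transcript family, so these are not independent cases. In young leaf they stood at 51.4%, 50.5% and 50.03% of the B line.

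Os.17916.1.S1_at was the most variable member. In young root its B line arrays read 10.98, 12.57 and 13.64 and its hybrid arrays 14.72, 14.74 and 14.56. In mature leaf both were near 15, at 15.20 ± 0.06 and 15.01 ± 0.09. In mature root the B line arrays read 6.33, 2.82 and 6.43 and the hybrid arrays 2.83, 2.90 and 2.89, so that 1 B line array was at background. In flag leaf the hybrid arrays read 7.95, 7.30 and 8.51 against 6.86, 4.50 and 4.0 in the B line, which is at least 493% of the B line with array values under 5 set to 5, while R line means were under 5 throughout. All 7 leaf markers were also higher in hybrid young roots than in those of either parent, by list means of 11.8 against 9.65 and 9.33. Their part in the young root values of these 4 probe sets was not tested.

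Other members stood far below the linear mid-parent. OsAffx.30906.1.S1_at, also chosen after its values were seen, was lower at 3 combinations. In young leaf its B line arrays read 8.93, 8.72 and 8.23, its hybrid arrays 5.56, 6.28 and 6.20 and its R line arrays 2.33, 2.26 and 2.25. It differed from the linear mid-parent there by -1.63 ± 0.21 (limma, adjusted p = 2.19e-07), with the hybrid at 16.4% of the B line, without overlap with either parent.

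Within the hybrid, whose arrays the rule did not use, members differed between tissues in both directions. Young leaf exceeded young root for 44 members (27.5%, near the 25.5% of all tested probe sets). Young leaf fell below young root for 28 members (17.5%, against 36.9% of all). Mature leaf exceeded mature root for 50 (31.2%, near the 30.5% of all) and fell below it for 52 (32.5% against 46.1%). After quantile normalization these counts were 69 and 25, and 62 and 40. The median of all tested probe sets was -0.13 and -0.33 and moved to 0.01 and -0.13 after quantile normalization, and the median of the members was 0.21 and -0.02 and moved to 0.49 and 0.33.

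Among the most leaf-high members was LOC4331070, with hybrid arrays of 9.85, 9.87 and 9.76 in mature leaf and 4.24, 3.01 and 4.58 in mature root. LOC4339148 read 9.25, 9.06 and 9.02 in hybrid mature leaf and 5.58, 5.93 and 5.16 in mature root, a difference of 3.55 ± 0.23 (limma, adjusted p = 3.55e-16). In the other direction LOC4337607 stood at 10.13 ± 0.25 in hybrid mature root and 5.14 ± 0.38 in mature leaf. Leaf minus root in the mature hybrid was -3.93 ± 0.38 for ENR (limma, adjusted p = 2.26e-11) and -2.59 ± 0.24 for H2B.10 (adjusted p = 5.26e-12).

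From seedling to mature plant more members were lower than higher, and from mature leaf to flag leaf more were higher. Mature leaf exceeded young leaf for 14 members (21.6% of all tested probe sets) and fell below it for 72 (31.2%). Mature root exceeded young root for 20 (27.5%) and fell below it for 66 (37.4% of all, near the 41.2% of members). After quantile normalization these were 20 and 60, and 30 and 63. Flag leaf exceeded mature leaf for 83 (28.5%) and fell below it for 16 (19.6%), or 68 and 16 after quantile normalization. LOC4326061 followed this course, from 13.21 ± 0.30 in hybrid young leaf to 11.62 ± 0.09 in mature leaf and 12.65 ± 0.04 in flag leaf, while its B line stayed at 13.25 to 13.44 in the same leaves.

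The position of the hybrid against the log2 mid-parent was also compared between combinations. From young to mature leaf it was lower for 61 members (28.1% of all tested probe sets) and higher for 7 (8.32%), or 38 and 15 after quantile normalization. For LOC4326061 it differed by -1.50 ± 0.16 (limma, adjusted p = 2.6e-08). Between young leaf and young root it was higher in leaf for 34 (28.2%) and lower for 14 (12.8%). Between mature leaf and mature root it was higher for 13 (6.85%) and lower for 25 (11.8%), but 17 and 16 after quantile normalization. From young to mature root it was higher for 11 (11.1%) and lower for 27 (10.2%), and from mature to flag leaf higher for 16 (3.75%) and lower for 0 (0.514%), or 5 and 1 after quantile normalization. Quantile normalization moved the median of all tested probe sets from 0.26 to 0.09 between young leaf and young root, and from -0.24 to -0.04 from young to mature leaf. Both contrasts include the R line arrays of young leaf, which stand apart.

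The 77 member genes lay on 11 of the 12 nuclear chromosomes in the RefSeq table (assembly ASM3414082v1, used for chromosomes and gene order only). Over all chromosomes 5.23 of every 1000 genes of tested probe sets were member genes. Chromosome 12 held 11 of 710 tested genes, or 15.5 per 1000, chromosome 11 held 7 of 630, or 11.1, and chromosome 9 held 8 of 794, or 10.1. Chromosome 1 held the largest number, 12 of 2202 genes, or 5.45 per 1000. Chromosome 7 held 2 of 1137 and chromosome 10 held 0 of 711. Genes higher in the R line by the exchanged rule numbered 10 on chromosome 11, 6 on chromosome 12 and 1 on chromosome 10. These counts are a description, without a test.

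**Figure D5:**
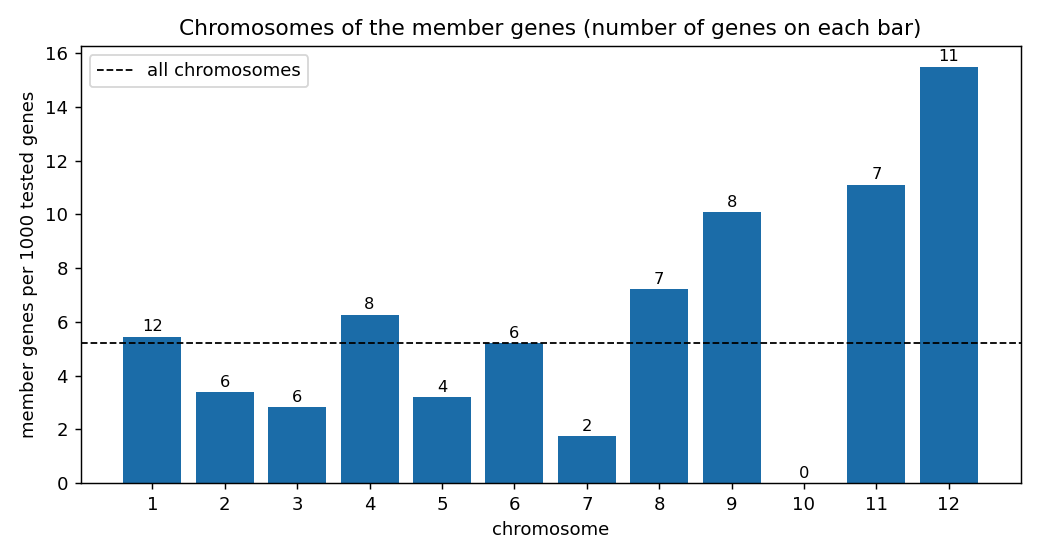
Member genes per 1000 genes of tested probe sets on each chromosome (bars, with the number of member genes above each) and over all chromosomes (dashed line, 5.23). Chromosomes 12, 11 and 9 stand highest at 15.5, 11.1 and 10.1, and chromosome 10 has 0 member genes.

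Some member genes were neighbours. Counting as neighbours genes at most 5 positions apart in the table, 14 of 77 member genes (18.2%) fell into 6 runs. Of the 61 genes higher in the R line, 16 (26.2%) fell into 8 runs. Adjacent member genes were LOC4334934 and LOC4334935 on chromosome 4, LOC4341377 and LOC4341378 on chromosome 6, and LOC4347149, LOC4347150 and LOC4347151 on chromosome 9. The other runs were LOC4331306, LOC4331310 and LOC4331313 within 9 genes on chromosome 3, LOC4350992 and LOC4350996 within 4 genes on chromosome 11, and LOC4352057 and LOC4352059 within 4 genes on chromosome 12.

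In the run on chromosome 9 the contrast between the parents was not uniform. LOC4347150 in young root read 9.49, 8.93 and 9.06 in the B line, 7.43, 7.32 and 7.46 in the hybrid and 2.08, 2.04 and 2.07 in the R line. LOC4347151 there read 10.62, 10.74 and 10.67, then 10.13, 10.14 and 9.99, then 8.63, 8.16 and 7.84. The arrays of the 3 genotypes did not overlap for either gene, and the R line was at background for the first only. Averaged over the 5 combinations the hybrid reached 36.3% of the B line for LOC4347150, 50.9% for LOC4347149 and 60.0% for LOC4347151.

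The runs also held 8 tested probe sets that were no members. Of these, 6 belong to the member genes themselves, which the rule chose on the same difference, and 2 belong to other genes, LOC4350994 and LOC4352058. With group means under 5 set to 5, the mean B line minus R line difference was at least 1 for 1 of the 8, a further probe set of LOC4347149 at 1.02. It was 0.31 for LOC4350994 and 0.95 for LOC4352058. Os.54513.1.S1_at for LOC4352059 on chromosome 12 ran the other way, at -1.13 on that scale, although the member probe set of the same gene was at 2.04 as measured.

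Other probe sets of the member genes often showed a smaller contrast. The array holds 37 further probe sets for 27 of the member genes. A mean of at least 5 over all 15 groups was reached by 14 of them, for 13 genes. With group means under 5 set to 5, a setting added after seeing the data, their mean B line minus R line difference was at least 1 for 2, within 1 for 11 and -1 or less for 1, with a median of 0.31 and a range from -1.13 to 1.16. The pair at 1 or more belonged to LOC4324546, at 1.16, and LOC4347149, at 1.02. A second probe set of CARA averaged 10.25 in the B line and 9.87 in the R line. For OsRMR2 1 further probe set differed by -0.09 and another by 0.58. For LOC4350992 the difference was 0.21. Further probe sets of MCM9 and LOC4328727, whose means over all groups were under 5, differed by 0.71 and 1.29 on this scale and by 0 at their lowest combination. As measured they differed by 2.97 and 3.43, against 3.02 and 10.08 in a member probe set of the same gene. The filter on all 15 groups can leave out probe sets with the R line near background. Without it, 23 further probe sets for 20 genes reached 5 in a B line group. Their difference as measured was at least 1 for 11, within 1 for 11 and -1 or less for 1. As measured, a contrast near the size found in the member probe set was thus present for MCM9 and for genes with a small member contrast. These were LOC4324546 (1.42 against 1.28 in the member probe set), LOC4344766 (1.83 against 1.74) and LOC4352075 (1.89 against 1.80). For LOC4344766 the further probe set ran the other way at its lowest combination, at -0.54. Such a contrast was often not found in another probe set of the same gene, and the reason was not tested.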

How the data were processed

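The authors deposited 1 table of intensities for 57381 probe sets on 45 Affymetrix rice arrays, on a linear scale and made with GCRMA per the submitters' processing notes. Its version was not stated there. RNA was extracted with Trizol and 5 µg was labelled per array, per the labels' protocols. Groups came from the labels, with 3 biological replicates in each of 15 groups. Log2 was taken of the intensities, of which 0 lay under the floor of 1, and nothing else was normalized.

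Members and lists were chosen with earlier results of these data known. A limma 3.58.1 model (R 4.3.3) of the 15 group means used all 45 arrays, leaving 30 residual degrees of freedom, with Benjamini-Hochberg adjustment over 24130 probe sets for each comparison and a threshold of 0.05. The error of the linear mid-parent comparison came from the delta method. The number of arrays limits the precision. On simulated data for mature leaf with 24130 probe sets, the recovered share was 64 of 100 at a 2-fold change and 99 of 100 at a 4-fold change, with 7 false calls.

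Gene names came from the array annotation, which gives 1 gene for 22436, several for 95 and none for 34727. It holds no product descriptions, so groups by described function could not be formed. Members are named where the gene has a descriptive symbol, where the member is among the 5 with the largest smallest difference, the 5 nearest the threshold on either side, the 5 highest or lowest against the mid-parent, or the 5 most leaf-high or root-high in the hybrid, and where it neighbours another member or has another probe set. Leaf and root markers came from a hand-written list. Arrays with the same replicate number were treated as unpaired, since their residual correlations averaged -0.114 to 0.0495 by stage. Single pairs ranged from -0.506 to 0.425, and low averages cannot show whether such arrays were grown or processed together. Alternatives were array weights, quantile normalization, fits of 1 stage, dropping the level filter, the replicate block, other rule thresholds and single arrays left out. Chosen after seeing the data were the settings without young leaf and with log2 values under 5 set to 5. Figures used matplotlib 3.10.9 in Python 3.11.15.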

Additional observations from a re-analysis of the deposited data

Results flagged for a closer look

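The position of the hybrid against the log2 mid-parent differed between tissues or ages, by limma contrasts of the difference itself, for some members. The difference passed for 48 members between young leaf and young root and 38 between mature leaf and mature root. It passed for 68 between mature and young leaf, 38 between mature and young root and 16 between flag leaf and mature leaf. For young leaf minus young root, 21.2% of members passed upward and 8.75% downward, below the array-wide 28.2% and 12.8%. Mature minus young leaf gave 4.38% and 38.1%, against 8.32% and 28.1% array-wide. Mature minus young root gave 6.88% and 16.9%, against 11.1% and 10.2%. Mature leaf minus mature root gave 8.12% and 15.6%, against 6.85% and 11.8%. Flag minus mature leaf gave 10% and 0%, against 3.75% and 0.514%. EIL1 was further above the mid-parent in young leaf than in young root by 2.40, ENR by 1.88, OsRMR2 by 1.5 and BGLU9 by 1.13. From young to mature leaf the difference was -1.57 for EIL1, -1.20 for ENR and -1.12 for BGLU9. In all of these young leaf is on 1 side, where the R line arrays stand apart. For OsRMR2 they read 3.88, 4.20 and 7.82 and for EIL1 5.83, 3.28 and 3.24, so that 1 array differs from the other two in each. The part of those arrays in the differences was not tested.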

How the results depend on the processing

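Of 106 settings for 21 counts (single arrays left out apart), 92 gave a count within 1.5 times of that reported, and so did 201 of 213 that left out 1 array or replicate. The rule gave 100 members with a difference of at least 2. Against the linear mid-parent, young root had 14 calls as reported but 23 after quantile normalization, 31 with array weights, 41 with log2 values under 5 set to 5 and 26 from its own arrays alone. Mature leaf had 26 but 14, 49 and 50 under the first 3 of these settings. Mature root had 28 but 47 with values under 5 set to 5. Flag leaf had 16 but 10 without the level filter, 27 with values under 5 set to 5 and 7 from its own arrays alone. The change in position from mature to flag leaf had 16 but 6 after quantile normalization and 38 with array weights. With single arrays left out, the linear comparison ranged from 25 to 46 in young leaf (lowest without hybrid replicate 2), 9 to 17 in young root (lowest without hybrid replicate 2), 15 to 25 in mature leaf and 4 to 16 in flag leaf. In mature leaf 15 or 16 calls were left without each hybrid array in turn and 17 without B line replicate 1. In flag leaf 4 were left without hybrid replicate 1, 8 without hybrid replicate 2 or B line replicate 1 and 10 without B line replicate 3. The flag leaf change ranged from 9 to 18 (9 and 10 without mature leaf hybrid replicates 1 and 2). The causes were not tested. The average against the log2 mid-parent turned negative with values under 5 set to 5 for LOC4331306 Os.10303.1.S1_at (-0.28), LOC4331313 (-0.35), LOC4352057 Os.50949.2.S1_x_at (-0.064) and LOC4341377 Os.52817.1.S1_at (-0.18), because that setting raises the R line.

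With the replicate block 139 members were called on average, 138 of them higher, against 140 without it, and the log2 mid-parent counts were 128, 98, 63, 95 and 90. In the reported fit the replicate numbers were not taken to pair the arrays. Without young leaf 122 members were called on average. The limits are the 3 arrays per group, the background level of the R line in most members and probes that may not match every allele.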
